A study of Mus musculus with 24 samples.

Results

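The sarcosine main effect compared the 12 frontal cortex libraries from mice that received sarcosine with the 12 libraries from mice that did not, over both levels of memantine. All 24 libraries of the series entered it. The side with sarcosine holds 6 libraries of mice given sarcosine at 100 mg/kg and 6 of mice given sarcosine at 100 mg/kg together with memantine at 20 mg/kg, called the combination. The side without sarcosine holds 6 libraries of mice given vehicle and 6 of mice given memantine alone at 20 mg/kg. All mice were wild-type C57BL/6 males, 4 weeks old at the start, and each was injected intraperitoneally every day for 28 days. The composition of the vehicle is not given in the sources used here. RNA came from frozen punches of frontal cortex, so a library is a mixture of all cells in the punch. Each gene was fitted with 1 sarcosine term and 1 memantine term and no interaction, so the sarcosine term is the average of the differences of sarcosine from vehicle and of combination from memantine. Sides were set by the treatment labels, not by any measured value.

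Sarcosine is N-methylglycine. It blocks the glycine transporter GlyT1 and is a co-agonist, at the site that glycine binds, of the NMDA receptor, the glutamate receptor whose open channel memantine blocks. In the brain, the interferon-gamma-induced GTPases and the MHC class I genes are expressed at low levels and are known to rise together when interferon signalling is active. Neurons and glia make their own cholesterol, because circulating cholesterol does not cross the blood-brain barrier, and the enzymes of that pathway are known to be regulated together.

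Reads recovered from the deposited values numbered 17008198 to 21844579 per library with sarcosine, 15543738 to 17425235 with vehicle, 14700861 to 15653093 with the combination and 12678114 to 19714592 with memantine. The labels name no batch, and the sample titles give only genotype, treatment, day and a replicate number. The p-values thus measure the spread between these samples. Library numbers run in blocks by treatment group, so a batch that followed them cannot be told apart from treatment. Markers of cortical excitatory neurons were present in every library, with summed normalised counts between 15509 and 73805 over 17 genes. A total of 8 libraries stood apart by RNA of choroid plexus or olfactory bulb. In 3 of them (sarcosine replicate 1, combination replicate 1, memantine replicate 3) the choroid plexus transcript Ttr had 33153 to 52720 normalised counts, against at most 1131 in the others. In 5 (sarcosine replicate 5, combination replicates 5 and 6, memantine replicates 4 and 5) the olfactory bulb transcript Cdhr1 had 2310 to 3464, against at most 789.5 in the others. Main results are given with and without these 8 libraries. None of the 8 is a vehicle library, so without them the other groups are smaller and the groups are uneven. A fit on fewer libraries has less power, so a gene not called there is not thereby shown to be unchanged. The 8 were not chosen by myelin RNA, so the fit without them is not free of it. Among libraries that stayed in, the oligodendrocyte transcript Ermn had 2757 and 1954 in vehicle replicates 3 and 6. It had 1710 in sarcosine replicate 4 and 2487 in memantine replicate 2. Among those left out, it had 2395 in sarcosine replicate 1, 2394 in combination replicate 1 and 3280 in memantine replicate 3.

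With sarcosine, genes of interferon-gamma-induced GTPases and of MHC class I antigen presentation were higher, by 1.47 to 3.65-fold for those that passed. Among genes of cholesterol synthesis 8 were lower, at log2 differences of -0.17 to -0.37. Of 16578 tested genes, 123 were called for the sarcosine main effect at an adjusted p under 0.05, which is 0.742% of them. The called genes numbered 52 higher (0.314%) and 71 lower (0.428%), and 2507 genes passed an unadjusted p under 0.05. A total of 12 called genes were more than 2-fold higher and 0 were more than 2-fold lower. Of the 12, 1 is a predicted gene, and the others are Gbp4, Gbp5, Iigp1, Ifi47, Tgtp1, Tgtp2, H2-Q5, H2-Q6, H2-Q7, Acer2 and Galnt15. Of these, Tgtp1 and H2-Q5 passed the filter on low values (10 or more in 6 or more libraries) only through libraries with sarcosine. All 123 had the same sign in sarcosine minus vehicle and in combination minus memantine, which a call on the average of both differences favours and which is no separate support. Of them 93 lay farther from 0 in sarcosine minus vehicle. The memantine term of the same fit called 0 genes with limma (882 at an unadjusted p under 0.05), 0 with edgeR and 12 with DESeq2.

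The count of 123 depended on which libraries were in the fit. Leaving out 1 library gave 41 to 316 called genes, and 38 genes were called in all 24 such fits, 19 of them higher. The count was 62, 47, 41 and 50 without sarcosine replicates 1, 3, 5 and 6, and 58, 68, 43 and 54 without vehicle replicates 1, 3, 4 and 6. It was 316 and 80 without combination replicates 1 and 5, and 304, 48 and 51 without memantine replicates 3, 5 and 6. Without the 8 libraries named above, 3 genes were called (0.0181%), Gbp4, Acer2 and H2-Q6. With scores of neighbouring-tissue markers as covariates 11 were called (0.0664%), 9 higher (0.0543%) and 2 lower (0.0121%). With a correction for transcript length and GC content 29 were called (0.178%), of which 25 were among the 123.

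Interferon-gamma-induced GTPases were the group with the largest share of members called. These proteins, the guanylate-binding proteins and the immunity-related GTPases, act on membranes around intracellular pathogens. Of 14 tested genes, 7 rose with sarcosine (Gbp4, Gbp5, Gbp7, Tgtp1, Tgtp2, Iigp1 and Ifi47) and 0 fell, against 0.314% of all tested genes called higher. Tgtp1 was tested only because libraries with sarcosine reached the filter, so its call is no separate support. All 14 had positive values, with a median of 0.70 on the log2 scale, beside 0.0016 over all tested genes. Without the 8 libraries the median was 0.45, with 1 of the 14 called. With all libraries it was 0.73 in sarcosine minus vehicle and 0.77 in combination minus memantine. Gbp, Tgtp and H2-Q genes each have close copies in the genome, so reads may be split between copies and the values of single genes are uncertain. Promoters that RefSeq lists are printed for Gbp5, Gbp7, Tgtp1 and Tgtp2, to let their shared letters be read beside their values.

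Each run gives 120 bases of the build GRCm38.p6 from RefSeq, 5′ to 3′ on the strand of the gene. Capitals mark a form of the interferon-stimulated response element, in which 2 copies of GAAA are separated by any 2 bases, and the letters TTCNNNGAA, the gamma-activated site, both on either strand.
Gbp5, chr3:142496804-142496923, plus strand: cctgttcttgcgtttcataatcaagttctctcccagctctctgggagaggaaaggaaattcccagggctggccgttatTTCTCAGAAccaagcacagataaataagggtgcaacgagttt
Gbp7, chr3:142530206-142530325, plus strand: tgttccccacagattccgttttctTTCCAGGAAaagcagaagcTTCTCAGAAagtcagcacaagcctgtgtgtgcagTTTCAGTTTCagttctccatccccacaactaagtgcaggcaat
Tgtp1, chr11:48992257-48992376, minus strand: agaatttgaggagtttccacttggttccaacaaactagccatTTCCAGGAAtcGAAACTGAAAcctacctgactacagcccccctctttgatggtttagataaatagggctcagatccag
Tgtp2, chr11:49064223-49064342, minus strand: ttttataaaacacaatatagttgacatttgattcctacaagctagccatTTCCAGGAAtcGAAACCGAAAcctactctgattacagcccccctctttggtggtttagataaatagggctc
Over the 250 bases before the start, the response element form occurred in 9 of the 10 GTPase genes with a listed promoter, all but Ifi47, and in 2.98% of 32851 listed starts. TTCNNNGAA occurred in 6 of the 10 and in 7.02% of all starts. In these counts a gene holds a match if any of its listed starts does, while the percentage is over single starts. Counts and percentages are thus in unlike units, here and for the lists below. Ifi47, a called member with a listed promoter, held neither match and is not printed. These are matches of letters, and binding was not measured. In Gbp5 the match to the response element lies outside the run shown. The runs of Tgtp2 and Tgtp1 share 97 of 108 aligned bases (89.8%).

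Gbp4 rose most among called genes with a mean of at least 50 normalised counts. Its lowest, median and highest values were 120, 143 and 293 normalised counts in sarcosine libraries, against 38.4, 56.5 and 96.4 in vehicle libraries. They were 54.8, 109 and 152 in combination libraries, against 27.2, 33.04 and 44.9 in memantine libraries. Neither pair of groups overlapped. The main effect was 1.49 (SE 0.18, adjusted p = 0.000105), a 2.82-fold difference, and the interaction, the difference between both levels, was -0.018 (SE 0.37, adjusted p = 0.988). Tgtp2, another GTPase of this group, had 30.6, 45.9 and 64.2 in sarcosine libraries, against 12.3, 15.9 and 25.3 in vehicle libraries. In combination libraries it had 20.6, 32.9 and 48.6, against 8.97, 10.8 and 20.48 in memantine libraries. Here too the groups did not overlap at either level, and the main effect was 1.35 (SE 0.17, adjusted p = 0.000195).

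Gbp5, which takes part in inflammasome assembly, had 92.5, 142 and 208 in sarcosine libraries, against 41.04, 78.2 and 85.8 in vehicle libraries, with no overlap. It had 59.5, 123 and 264 in combination libraries, against 54.3, 58.4 and 90.1 in memantine libraries, which overlapped. Its main effect was 1.06 (SE 0.20, adjusted p = 0.0163). Iigp1, an immunity-related GTPase, averaged 145 ± 44.5 in sarcosine libraries and 93.0 ± 43.1 in vehicle libraries (SD, n = 6 each). It averaged 126 ± 42.8 in combination libraries and 47.1 ± 11.7 in memantine libraries, with a main effect of 1.04 (adjusted p = 0.0236). Tgtp1 had a main effect of 1.40 (adjusted p = 0.0194), Gbp7 of 0.55 (adjusted p = 0.0401) and Ifi47, named after its values were seen, of 1.13 (adjusted p = 0.0349).

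The members that did not pass had values from 0.29 (Gbp6, adjusted p = 0.740) to 0.77 (Gbp2, adjusted p = 0.0743), among them Igtp at 0.63 (adjusted p = 0.0784) and Irgm1 at 0.40 (adjusted p = 0.0759). Gbp4, Gbp5, Tgtp1 and Tgtp2 were called in each of the 24 fits that leave out 1 library, Iigp1 in 19, Ifi47 in 10 and Gbp7 in 8. After the length correction 5 of the 14 were called. Without the 8 libraries Gbp4 was at 1.21 (adjusted p = 0.0407), Tgtp2 at 1.21 (adjusted p = 0.0601) and Gbp5 at 0.82 (adjusted p = 0.147).

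**Figure D1:**
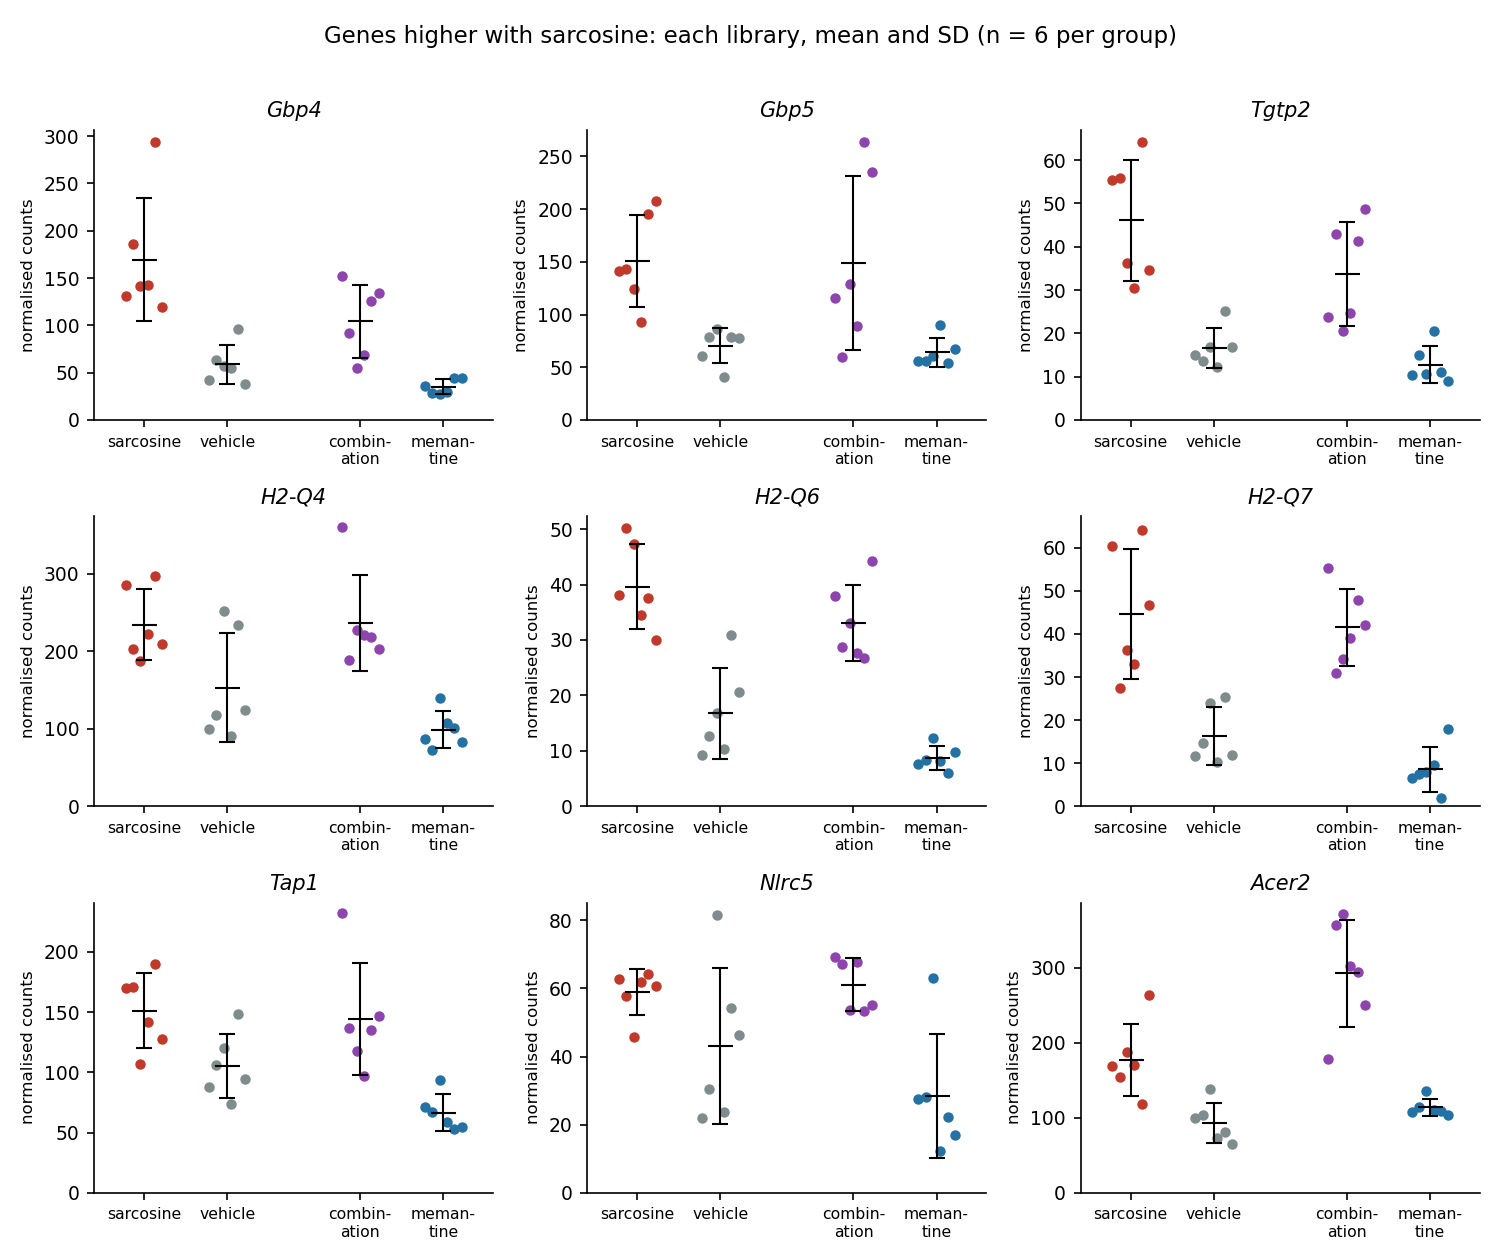
Normalised counts (linear axis from 0) of 9 genes called higher with sarcosine, 1 point per library, with the mean and SD of each group of 6. In every panel sarcosine stands left of vehicle and combination left of memantine; Gbp4, Tgtp2 and H2-Q7 do not overlap in either pair, while Nlrc5 overlaps in both.

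MHC class I molecules present peptides to CD8 T cells, and several of their genes rose with sarcosine. Of 25 tested genes of class I presentation, 6 rose (H2-Q4, H2-Q5, H2-Q6, H2-Q7, Tap1 and Nlrc5) and 0 fell, against 0.314% of all tested genes called higher. H2-Q5 was tested only because libraries with sarcosine reached the filter, so its call is no separate support. The median of the 25 was 0.23, and 0.11 without the 8 libraries, where 1 of the 25 was called. This list was written after results of these data were known, and Nlrc5 was named after its values were seen. The rise did not extend to all class I genes: H2-T22 was at 0.050 (adjusted p = 0.824) and the light chain B2m at 0.22 (adjusted p = 0.375), while the classical heavy chains H2-K1 and H2-D1 were at 0.54 (adjusted p = 0.0518) and 0.45 (adjusted p = 0.142). The median was 0.18 in sarcosine minus vehicle and 0.45 in combination minus memantine.

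The promoters of 3 Qa-2 region genes are shown because their values moved alike and their sequences are near-copies. Capitals mark GAANNGAAA, a form of the interferon-stimulated response element with 1 base less, and CCAAT, both on either strand.
H2-Q4, chr17:35379448-35379567, plus strand: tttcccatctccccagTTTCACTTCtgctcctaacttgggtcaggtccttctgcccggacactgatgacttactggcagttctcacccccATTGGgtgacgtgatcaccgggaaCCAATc
H2-Q6, chr17:35424681-35424800, plus strand: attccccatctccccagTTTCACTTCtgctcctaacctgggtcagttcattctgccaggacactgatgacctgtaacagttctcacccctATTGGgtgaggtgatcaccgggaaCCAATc
H2-Q7, chr17:35439025-35439144, plus strand: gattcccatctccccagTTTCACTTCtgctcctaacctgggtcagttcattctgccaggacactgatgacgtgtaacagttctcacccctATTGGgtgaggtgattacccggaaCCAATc
The runs of H2-Q7 and H2-Q6 share 116 of 119 aligned bases (97.5%), and those of H2-Q6 and H2-Q4 share 109 of 117 (93.2%). GAANNGAAA occurred in 8 of 22 class I genes searched and in 6.31% of all starts, CCAAT in 15 of the 22 and in 33.8% of all starts. The longer form marked in the GTPase promoters occurred in 3 of the 22, B2m, H2-T22 and H2-T23. TTCNNNGAA occurred in 2, H2-M3 and Psmb8. None of the genes with these GTPase letters was called for the main effect. Reads of the H2-Q copies may be assigned to the wrong member, so their single values are uncertain.

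H2-Q7 separated the sides completely. It had 27.4, 41.5 and 64.2 normalised counts (lowest, median, highest) in sarcosine libraries, against 10.3, 13.3 and 25.3 in vehicle libraries. It had 30.9, 40.6 and 55.3 in combination libraries, against 2.01, 7.70 and 17.9 in memantine libraries. The lowest of the 12 libraries with sarcosine thus lay above the highest of the 12 without. The main effect was 1.87 (SE 0.24, adjusted p = 0.000222), and H2-Q5 had 1.62 (adjusted p = 0.00325).

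H2-Q6 had 29.95, 37.8 and 50.1 in sarcosine libraries, against 9.27, 14.7 and 30.9 in vehicle libraries. It had 26.7, 30.9 and 44.3 in combination libraries, against 6.03, 8.31 and 12.3 in memantine libraries. Only vehicle replicate 5 reached the range of the sarcosine libraries. The main effect was 1.55 (SE 0.17, adjusted p = 6.01e-05), the smallest adjusted p of the fit.

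H2-Q4 was expressed higher than its copies. It had 188, 215 and 297 in sarcosine libraries, against 91.3, 121 and 252 in vehicle libraries, which overlapped. It had 189, 220 and 360 in combination libraries, against 72.1, 94.4 and 140 in memantine libraries, which did not. The main effect was 0.98 (SE 0.17, adjusted p = 0.00842). Tap1, the transporter that loads class I molecules with peptide, had 107, 156 and 190 in sarcosine libraries, against 73.9, 100.5 and 149 in vehicle libraries. It had 96.6, 136 and 232 in combination libraries, against 53.3, 63.1 and 93.9 in memantine libraries, where the groups did not overlap, and the main effect was 0.80 (adjusted p = 0.0158).

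Nlrc5, the transactivator of class I genes, averaged 58.9 ± 6.80 in sarcosine libraries and 43.1 ± 22.8 in vehicle libraries. It averaged 61.1 ± 7.74 in combination libraries and 28.4 ± 18.1 in memantine libraries, with a main effect of 0.92 (adjusted p = 0.0463). It was called in 4 of the 24 fits that leave out a library, while Tap1, H2-Q4, H2-Q5, H2-Q6 and H2-Q7 were called in all 24. After the length correction those 5 were called, H2-K1 was called as well (0.58, adjusted p = 0.0223), and Nlrc5 was not (adjusted p = 0.115). Without the 8 libraries H2-Q6 was at 1.45 (adjusted p = 0.0407), H2-Q7 at 1.37 (adjusted p = 0.0851), H2-Q4 at 0.86 (adjusted p = 0.147) and Tap1 at 0.56 (adjusted p = 0.164).

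Other interferon genes did not pass. Of 23 type I interferon-stimulated genes 0 were called (limma), with a median of 0.091, -0.031 in sarcosine minus vehicle and 0.26 in combination minus memantine. Positive values numbered 19 of the 23 for the main effect, 11 in sarcosine minus vehicle and 21 in combination minus memantine. Of 16 tested genes of interferon-gamma signalling, a list written after the data were seen, 0 were called. Over all tested genes 0.742% were called, so 0 calls in these lists, or in others of their size, is near that share. Irf1, an interferon-induced transcription factor, was at 0.11 (adjusted p = 0.755), and Socs3, a feedback inhibitor of cytokine signalling, at 0.81 (adjusted p = 0.150). The transcript of interferon-gamma itself, Ifng, had at most 0.988 normalised counts in a sarcosine library, 2.32 in a vehicle library, 1.14 in a combination library and 0 in memantine libraries.

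Lymphocytes, the usual source of interferon-gamma, left few reads. Of 14 lymphocyte markers, also listed after the data were seen, 2 reached the filter, Cd4 and Ccl5. The summed markers ranged from 58.6 to 396 normalised counts in sarcosine libraries and from 34.9 to 157 in vehicle libraries. They ranged from 46.8 to 260.0 in combination libraries and from 24.7 to 128 in memantine libraries. Most of these sums was Cd4, at 107 ± 127 in sarcosine libraries and 40.9 ± 23.9 in vehicle libraries (adjusted p of the main effect 0.349). In combination libraries Cd4 averaged 97.7 ± 84.9, against 42.07 ± 40.7 in memantine libraries. Mean values of the T-cell receptor component Cd3e were 1.6 with sarcosine, 3.77 with vehicle, 2.70 with the combination and 1.65 with memantine. The part of these cells in the rise of the GTPase and class I genes was not tested. In bulk tissue, more cells of a type and more RNA per cell cannot be told apart.

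Acer2, an alkaline ceramidase of the Golgi that releases sphingosine from ceramide, rose at both levels. It had 119, 170 and 263 normalised counts (lowest, median, highest) in sarcosine libraries, against 65.03, 90.1 and 138 in vehicle libraries, which overlapped. It had 179, 298 and 371 in combination libraries, against 104, 110.1 and 135 in memantine libraries, which did not. The main effect was 1.12 (SE 0.14, adjusted p = 0.000105), 2.18-fold. It was called in all 24 fits that leave out a library, after the length correction (adjusted p = 0.000227), with marker scores as covariates (adjusted p = 0.00553) and without the 8 libraries (1.29, adjusted p = 0.00743). It was the only called gene of 27 tested genes of ceramide metabolism, a list written after the data were seen, whose median was -0.025. Acer3, another alkaline ceramidase, was at 0.12 (adjusted p = 0.263).

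Among other genes that rose with a mean of at least 50, Galnt15, which starts O-glycans, was at 1.04 (adjusted p = 0.0480) and Adamts3, a procollagen protease, at 0.58 (adjusted p = 0.0380). The zinc finger gene Zkscan16 was at 0.63 (adjusted p = 0.0422), Prdm11, a PR-domain protein, at 0.47 (adjusted p = 0.0160) and the Rab GTPase-activating protein gene Tbc1d8 at 0.43 (adjusted p = 0.0371). Galnt15 was called in 5 of the 24 fits that leave out a library, Zkscan16 in 9, Adamts3 in 10, Tbc1d8 in 11 and Prdm11 in all 24. None of these 5 passed after the length correction (adjusted p from 0.0738 for Prdm11 to 0.104 for Galnt15). With marker scores as covariates Adamts3 was at 0.25, Tbc1d8 at 0.23 and Zkscan16 at 0.37, and none of the 5 passed. Xrn1, the main cytoplasmic 5′ to 3′ exonuclease, had 565, 654 and 713 in sarcosine libraries, against 515, 535 and 552 in vehicle libraries. It had 597, 647 and 686 in combination libraries, against 525, 564 and 594 in memantine libraries. Neither pair overlapped, and the main effect was 0.23 (SE 0.041, adjusted p = 0.0107). Corrected for length, it was 0.15 and did not pass (adjusted p = 0.154), with 0.054 in sarcosine minus vehicle and 0.24 in combination minus memantine.

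**Figure D2:**
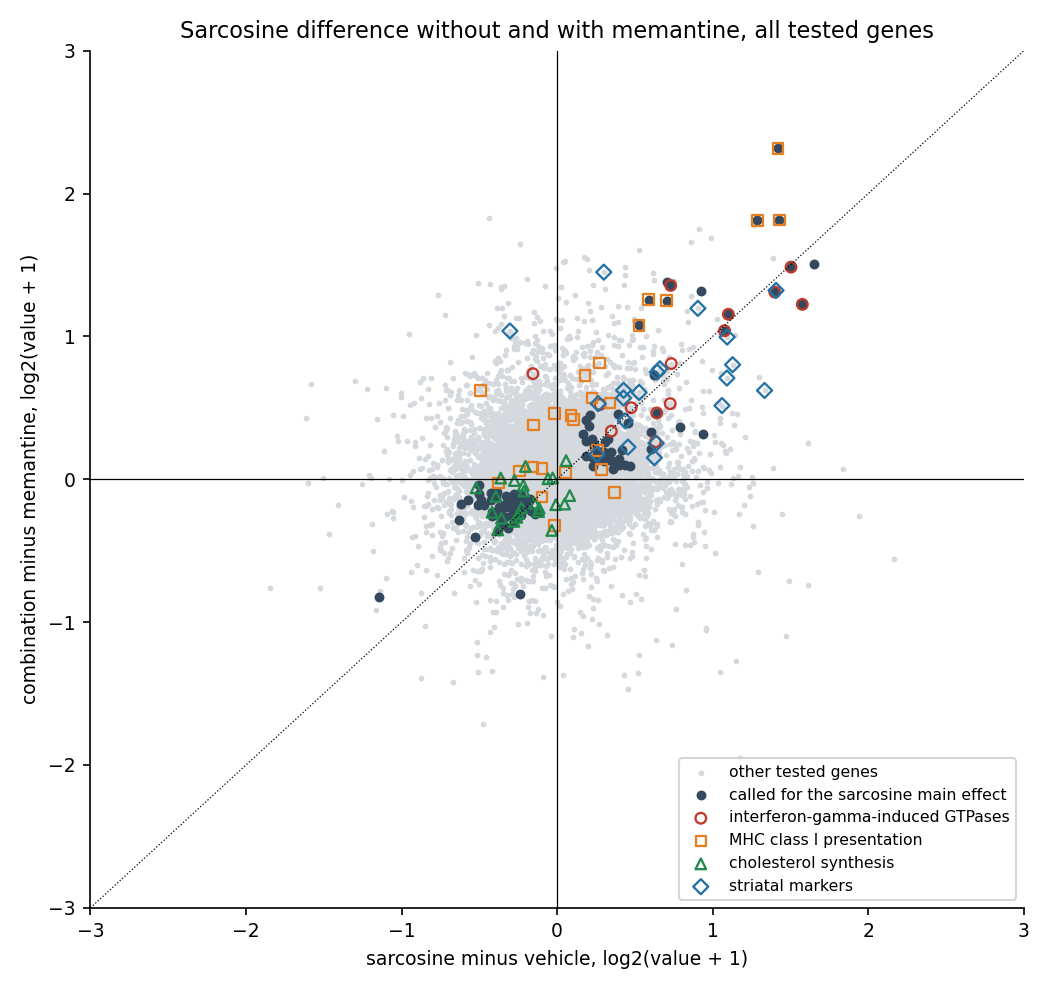
Each tested gene is placed by its difference in sarcosine minus vehicle (x axis) and in combination minus memantine (y axis), both in log2(value + 1); 1 gene lies outside the axes. The 123 called genes (dark points) lie in the quadrants where both differences have the same sign, with the GTPases (circles) and H2-Q genes (squares) at the upper right and cholesterol genes (triangles) at the lower left, while over all genes the axes correlate at r = 0.0805.

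Across the 16578 tested genes, which are not independent replicates, the difference of sarcosine from vehicle and that of combination from memantine correlated at r = 0.0805, and 49.4% had the same sign. After the length correction r was 0.139. In the model of the 4 group means, 1548 genes were called for sarcosine minus vehicle (9.34%), 782 higher (4.72%) and 766 lower (4.62%), a split that was 603 to 1177 with upper-quartile scaling. For combination minus memantine 9 were called (0.0543%), all higher. These were Gbp4, Tgtp2, H2-Q4, H2-Q6, H2-Q7, Tap1, Acer2, Plek and a gene known by a clone name. The count of 9 was 4 without sarcosine replicate 2 or vehicle replicate 6, 3 and 51 without combination replicates 5 and 6, 3 without memantine replicate 1 or 2, and 4 without memantine replicate 4, 5 or 6. Of the 123 genes of the main effect, 100 were also called for sarcosine minus vehicle and 8 for combination minus memantine.

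Averaged over both memantine levels, values leaned to longer transcripts with sarcosine, but not in combination minus memantine. Fitted over genes within each library, log2 values relative to the mean of all libraries changed per 10-fold longer transcript by 0.18 ± 0.15 in sarcosine libraries and -0.23 ± 0.096 in vehicle libraries. It was -0.018 ± 0.18 in combination libraries and 0.064 ± 0.070 in memantine libraries (SD, n = 6 each). Over both levels the slope was 0.16 higher with sarcosine (exact permutation within memantine levels, two-sided p = 0.0417, adjusted p = 0.0417 over 2 tests; the smallest p the design allows is 2.34e-06). With 1 library left out this p was 0.0118 to 0.0847. It was above 0.05 without sarcosine replicates 2, 3, 5 or 6, vehicle replicates 1, 3, 5 or 6, combination replicates 2, 3, 5 or 6, or memantine replicates 2 or 5. The slope was 0.41 higher with sarcosine than with vehicle, and 0.082 lower with the combination than with memantine. Called genes that rose had a median length of 4459.5 bases and called genes that fell 1832 bases, beside 3281 bases over all tested genes. Mitochondrially encoded transcripts took 4.02 ± 0.338% of reads with sarcosine and 4.51 ± 0.577% without (n = 12 each), a difference of -0.49 percentage points (exact permutation, two-sided p = 0.0181, adjusted p = 0.0362). Most of that lay in sarcosine minus vehicle, at -0.83 percentage points, against -0.15 in combination minus memantine.

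Part of the cholesterol synthesis pathway fell with sarcosine. The 8 of 24 tested genes that fell were Hmgcs1, Pmvk, Mvd, Fdps, Cyp51, Msmo1, Ebp and Sc5d, and 0 rose, against 0.428% of all tested genes called lower. They span the pathway, from HMG-CoA synthase (Hmgcs1) and the mevalonate enzymes (Pmvk, Mvd) through farnesyl diphosphate synthase (Fdps) to the sterol enzymes (Cyp51, Msmo1, Ebp, Sc5d). In all, 23 of the 24 had negative values, with a median of -0.17, -0.21 in sarcosine minus vehicle and -0.17 in combination minus memantine. Srebf2, a regulator of the pathway, was at -0.017 (adjusted p = 0.951). The summed counts of the 24 genes were 22908 to 30365 in sarcosine libraries and 25347 to 31614 in vehicle libraries. They were 24967 to 28313 in combination libraries and 27234 to 32271 in memantine libraries, so the groups overlapped in both pairs.

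Mvd had 239, 276 and 337 normalised counts in sarcosine libraries, against 310, 352 and 472 in vehicle libraries. It had 224, 291 and 367 in combination libraries, against 340.1, 372 and 420.2 in memantine libraries. The groups overlapped at their edges, although all 12 libraries with sarcosine lay below the mean of their control group, and the main effect was -0.37 (SE 0.073, adjusted p = 0.0194). Fdps had 678, 764 and 838 in sarcosine libraries, against 800.1, 1017 and 1149 in vehicle libraries. It had 703, 818 and 935 in combination libraries, against 886, 983 and 1087 in memantine libraries, with a main effect of -0.32 (SE 0.063, adjusted p = 0.0180).

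The 2 sterol demethylation genes differed by about the same amount at both levels. Msmo1, a sterol C4 oxidase, averaged 1253 ± 83.8 in sarcosine libraries and 1522 ± 135 in vehicle libraries. It averaged 1286 ± 157 in combination libraries and 1574 ± 158 in memantine libraries (main effect -0.29, SE 0.057, adjusted p = 0.0194). Its difference was -0.28 in sarcosine minus vehicle and -0.29 in combination minus memantine. For Cyp51, lanosterol demethylase, the main effect was -0.26 (SE 0.055, adjusted p = 0.0236), with -0.26 and -0.27 at the 2 levels. Mvd, Fdps and Msmo1 were called in all 24 fits that leave out a library, Cyp51 and Sc5d in 21, Pmvk in 13, Ebp in 8 and Hmgcs1 in 4.

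After the length correction 4 of the 24 were called, which were Sc5d (adjusted p = 0.00138), Cyp51 (adjusted p = 0.0223), Msmo1 (adjusted p = 0.0322) and Fdps (adjusted p = 0.0464). The median was then -0.19. Without the 8 libraries 0 of the 24 were called by limma, with a median of -0.19 and values of -0.36 for Mvd (adjusted p = 0.176), -0.30 for Msmo1 (adjusted p = 0.147) and -0.29 for Fdps (adjusted p = 0.171).

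Of this pathway 1 promoter is shown, that of Hmgcs1. It alone among the 18 genes searched held the letters used for a sterol regulatory element. Capitals mark TCACNCCAC and CCAAT on either strand, in the build GRCm38.p6 from RefSeq.
Hmgcs1, chr13:119690201-119690320, plus strand: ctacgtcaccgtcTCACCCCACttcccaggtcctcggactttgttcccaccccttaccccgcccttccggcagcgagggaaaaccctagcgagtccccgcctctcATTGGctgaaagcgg
TCACNCCAC occurred in 1.05% of all starts, and CCAAT in 16 of the 18 genes and in 33.8% of all starts. The search used an exact string, and other forms of the element were not searched.

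**Figure D3:**
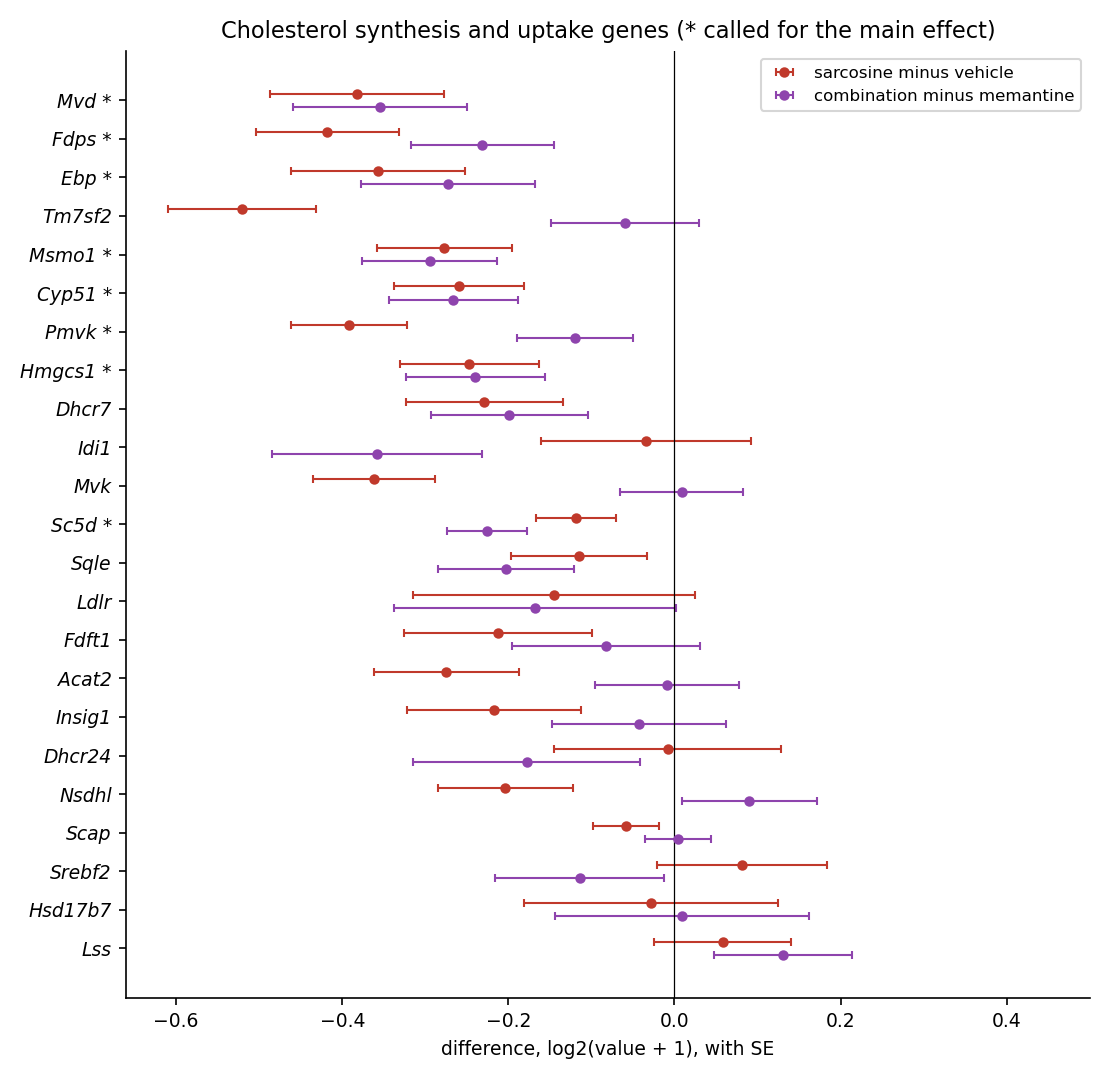
Differences in log2(value + 1), with SE, of 23 genes of cholesterol synthesis and uptake, ordered by main effect; each gene has a value for sarcosine minus vehicle and one for combination minus memantine, and an asterisk marks genes called for the main effect. Mvd, Msmo1, Cyp51 and Hmgcs1 lie at nearly the same value at both levels, while Tm7sf2, Pmvk and Mvk are farther from 0 in sarcosine minus vehicle.

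Of 27 tested heat shock and unfolded protein response genes, 2 fell (Hspa1a and Hspe1), against 0.428% of all tested genes called lower, and 26 had negative values. Their median was -0.21 for the main effect, -0.089 in sarcosine minus vehicle and -0.23 in combination minus memantine. Hspa1a, the inducible HSP70, had 71.2, 89.1 and 98.1 in sarcosine libraries, against 83.8, 101 and 133 in vehicle libraries. It had 66.1, 90.4 and 151 in combination libraries, against 148, 152 and 246 in memantine libraries. Its main effect was -0.52 (SE 0.12, adjusted p = 0.0463), with -0.24 in sarcosine minus vehicle and -0.80 in combination minus memantine (interaction -0.56, SE 0.22, adjusted p = 0.181). Its near-identical copy Hspa1b was at -0.72 (adjusted p = 0.0618), so reads may be split between them. Hspe1, the mitochondrial HSP10, was at -0.25 (adjusted p = 0.0349). Hspa1a was called in 6 and Hspe1 in 10 of the 24 fits that leave out a library. Neither passed after the length correction (adjusted p = 0.105 for Hspa1a and 0.0587 for Hspe1), while Dnaja1, another chaperone gene, did (-0.21, adjusted p = 0.0496). Also, 0 of the list were called by limma without the 8 libraries or with marker scores as covariates.

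Of 78 mitochondrial ribosomal protein genes, a list written after the data were seen, 4 fell (Mrps25, Mrpl42, Mrps12 and Mrpl34), against 0.428% of all tested genes called lower, with a median of -0.11. Mrps25 averaged 451 ± 46.6 in sarcosine libraries and 578 ± 42.7 in vehicle libraries. It averaged 485 ± 41.2 in combination libraries and 557 ± 34.3 in memantine libraries (main effect -0.28, SE 0.053, adjusted p = 0.0180), and it was called after the length correction (adjusted p = 0.0223), unlike the other 3. Of 42 genes of respiratory complexes II to V, 2 fell, against 0.428% of all tested genes. These were the complex III subunits Uqcr11 (-0.30, adjusted p = 0.0422) and Uqcrq (-0.27, adjusted p = 0.0371), and neither passed after the length correction (adjusted p = 0.0941 for Uqcr11 and 0.0860 for Uqcrq). Of 36 complex I genes and 78 cytosolic ribosomal genes 0 were called by limma, with medians of -0.15 and -0.14. Coa6, which assembles cytochrome oxidase, averaged 200.6 ± 8.98 in sarcosine libraries and 258 ± 19.8 in vehicle libraries. It averaged 196 ± 31.0 in combination libraries and 240 ± 21.6 in memantine libraries (main effect -0.33, adjusted p = 0.0180). Cisd3, a mitochondrial iron-sulfur protein, was at -0.36 (adjusted p = 0.0401). Neither Coa6 (adjusted p = 0.117) nor Cisd3 (adjusted p = 0.143) passed after the length correction.

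Genes that fell outside these groups include some of the smallest p-values. Lamtor5, a subunit of the Ragulator complex that anchors mTORC1 to lysosomes, had 455, 477 and 502 normalised counts in sarcosine libraries, against 561, 621 and 695 in vehicle libraries. It had 463, 477 and 501 in combination libraries, against 515, 567 and 614 in memantine libraries. All 12 libraries with sarcosine lay below all 12 without. The main effect was -0.31 (SE 0.045, adjusted p = 0.00125); it was called in all 24 fits that leave out a library, and not after the length correction (-0.25, adjusted p = 0.0860).

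Dpysl2, which encodes CRMP2, a tubulin-binding protein of growing axons, had 3827, 4024 and 4564 in sarcosine libraries, against 4424, 5206 and 5416 in vehicle libraries. It had 2880, 3687 and 4237 in combination libraries, against 4210, 4636 and 5115 in memantine libraries. The groups overlapped slightly in each pair, and the main effect was -0.33 (SE 0.054, adjusted p = 0.00588), with -0.32 and -0.34 at the 2 levels. It was called after the length correction (-0.37, adjusted p = 0.00175). The other 4 genes of its family, listed after the data were seen, were not called.

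Cuta, related to a bacterial copper tolerance protein, had 468, 509 and 579 in sarcosine libraries, against 619, 654 and 864 in vehicle libraries. It had 424, 597 and 617 in combination libraries, against 631, 663 and 702 in memantine libraries. Its sides did not overlap, and the main effect was -0.34 (SE 0.064, adjusted p = 0.0180). The histone variant gene H2aj had 287, 336 and 384 in sarcosine libraries, against 446, 511 and 556 in vehicle libraries. It had 353, 384 and 471 in combination libraries, against 410.1, 433 and 501 in memantine libraries. Its main effect was -0.39 (adjusted p = 0.0158), and its difference was smaller with memantine (interaction 0.45, SE 0.11, adjusted p = 0.0454).

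Slc2a5, a fructose transporter expressed by microglia, averaged 68.8 ± 10.2 in sarcosine libraries and 99.9 ± 15.4 in vehicle libraries. It averaged 63.04 ± 12.8 in combination libraries and 83.9 ± 16.3 in memantine libraries (main effect -0.47, SE 0.10, adjusted p = 0.0349). Of 17 tested microglial markers 0 were called by limma, with a median of -0.085. Bloc1s1, of lysosome-related organelle biogenesis, was at -0.45 (adjusted p = 0.0209), Rnaseh2c, a ribonuclease H2 subunit, at -0.35 (adjusted p = 0.0343) and the interleukin receptor gene Il11ra1 at -0.33 (adjusted p = 0.0230). With the length correction Il11ra1 passed (adjusted p = 0.0129), and Slc2a5 (0.0738), Bloc1s1 (0.0518) and Rnaseh2c (0.0860) did not. Below the mean of 50, Pln, which encodes phospholamban of muscle, was at -0.99 (adjusted p = 0.0349). It was named after its values were seen, and it passed the filter on low values only through libraries without sarcosine. It averaged 4.56 ± 1.45 in sarcosine libraries and 12.5 ± 6.13 in vehicle libraries. In combination libraries it averaged 6.15 ± 2.18, against 11.2 ± 1.72 in memantine libraries. Beside it, all 15 tested markers of smooth muscle and leptomeninges had negative values, with a median of -0.31 and 0 called.

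**Figure D4:**
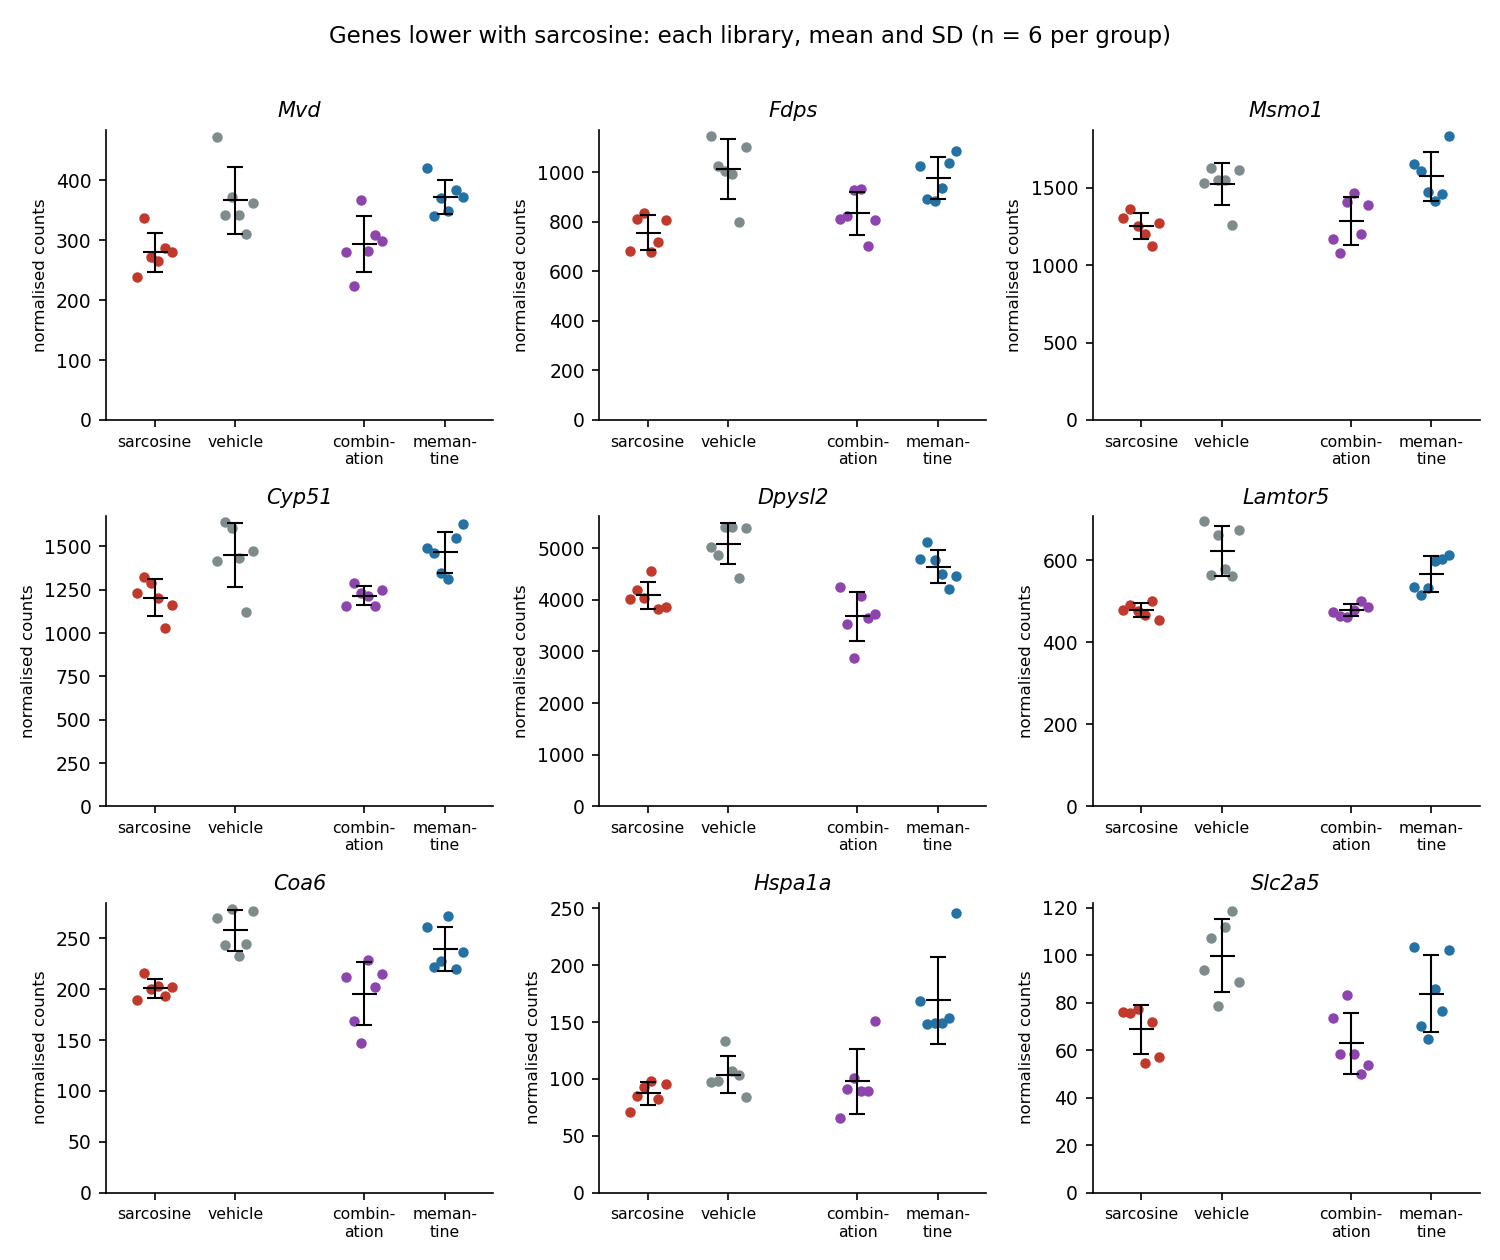
Normalised counts (linear axis from 0) of 9 genes called lower with sarcosine, 1 point per library, with the mean and SD of each group of 6. Sarcosine stands left of vehicle and combination left of memantine; the Lamtor5 groups do not overlap in either pair, and Hspa1a is highest in memantine libraries.

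The genes nearest to the chemistry of sarcosine were not called. Grin1, the obligatory NMDA receptor subunit, averaged 5589 ± 976 in sarcosine libraries and 5426 ± 868 in vehicle libraries. It averaged 5483 ± 539 in combination libraries and 5575 ± 634 in memantine libraries, with a main effect of 0.0081 (SE 0.080, adjusted p = 0.982). Grin2a was at -0.021 (SE 0.20, adjusted p = 0.981) and Grin2b at 0.026 (SE 0.11, adjusted p = 0.950). Slc6a9, the gene of GlyT1, averaged 448 ± 104 in sarcosine libraries and 364 ± 87.2 in vehicle libraries. It averaged 408 ± 104 in combination libraries and 434 ± 142 in memantine libraries (0.12, SE 0.15, adjusted p = 0.788). Sardh, which breaks down sarcosine, was at -0.11 (SE 0.063, adjusted p = 0.451), the peroxisomal sarcosine oxidase Pipox at 0.58 (SE 0.35, adjusted p = 0.475) and Gnmt, which makes sarcosine, at 0.10 (SE 0.34, adjusted p = 0.932). Gcsh of the glycine cleavage system was at -0.20 (SE 0.071, adjusted p = 0.173). Of 13 NMDA receptor genes, 17 of glycine and serine transport and 26 of sarcosine and one-carbon metabolism, 0 were called by limma. Over all tested genes 0.742% were called, so 0 calls in lists of this size is near that share. Their medians were 0.0081, -0.038 and -0.042.

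For some genes the difference with sarcosine was not the same with and without memantine. The interaction, the second difference (combination minus memantine) less the first (sarcosine minus vehicle), was called for 301 genes (1.82%), 96 higher (0.579%) and 205 lower (1.24%), a split that was 343 to 132 with upper-quartile scaling. In 277 of them the 2 differences had opposite signs, and 2 of them were among the 123 genes of the main effect. Those with a negative interaction had a median length of 7050.5 bases and those with a positive one 1281 bases; after the length correction 0 genes were called, and 1401 passed an unadjusted p under 0.05. Leaving out 1 library gave 0 genes without sarcosine replicates 2 or 5, combination replicates 1 or 4, or memantine replicates 3 or 4. It gave 83, 34 and 91 without sarcosine replicates 1, 3 and 6, and 53, 39, 106 and 16 without vehicle replicates 1, 3, 4 and 6. It gave 162 and 150 without combination replicates 2 and 3, 163, 135 and 51 without memantine replicates 1, 2 and 6, and 809 and 983 without sarcosine replicate 4 and combination replicate 6. Those of mean 50 or more with the smallest p were the deubiquitinase gene Usp9x (-1.08), Fam120c (-0.81), the Golgi tether gene Trip11 (-0.58) and the chromatin remodeller gene Bptf (-0.48), each with an adjusted p of 0.0261. Usp9x averaged 2885 ± 475 in sarcosine libraries and 1542 ± 263 in vehicle libraries. It averaged 1960 ± 383 in combination libraries and 2187 ± 226 in memantine libraries.

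Several lists had medians of opposite sign at the 2 levels, a difference that was not tested over lists. Cytosolic ribosomal genes had a median of -0.34 in sarcosine minus vehicle and 0.065 in combination minus memantine. Histone methylation enzymes (46 tested, 0 called for the main effect) had 0.27 and -0.026, and 53 autism-associated genes, also with 0 called, had 0.26 and -0.027. Corrected for length, these pairs were -0.17 and 0.0093 for the ribosomal, 0.078 and -0.028 for the histone methylation and 0.047 and -0.017 for the autism-associated genes. The immediate early genes, induced by neuronal activity, had 0.17 and -0.54 (29 tested, 0 called). Glucocorticoid-responsive genes were positive at both levels, 0.22 and 0.23 (18 tested, 0 called); Fkbp5 among them averaged 808 ± 302 in sarcosine libraries and 573 ± 106 in vehicle libraries, and 1390 ± 727 in combination libraries and 864 ± 318 in memantine libraries (0.51, adjusted p = 0.192). Of 21 circadian clock genes 0 were called, with a median of 0.034.

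**Figure D5:**
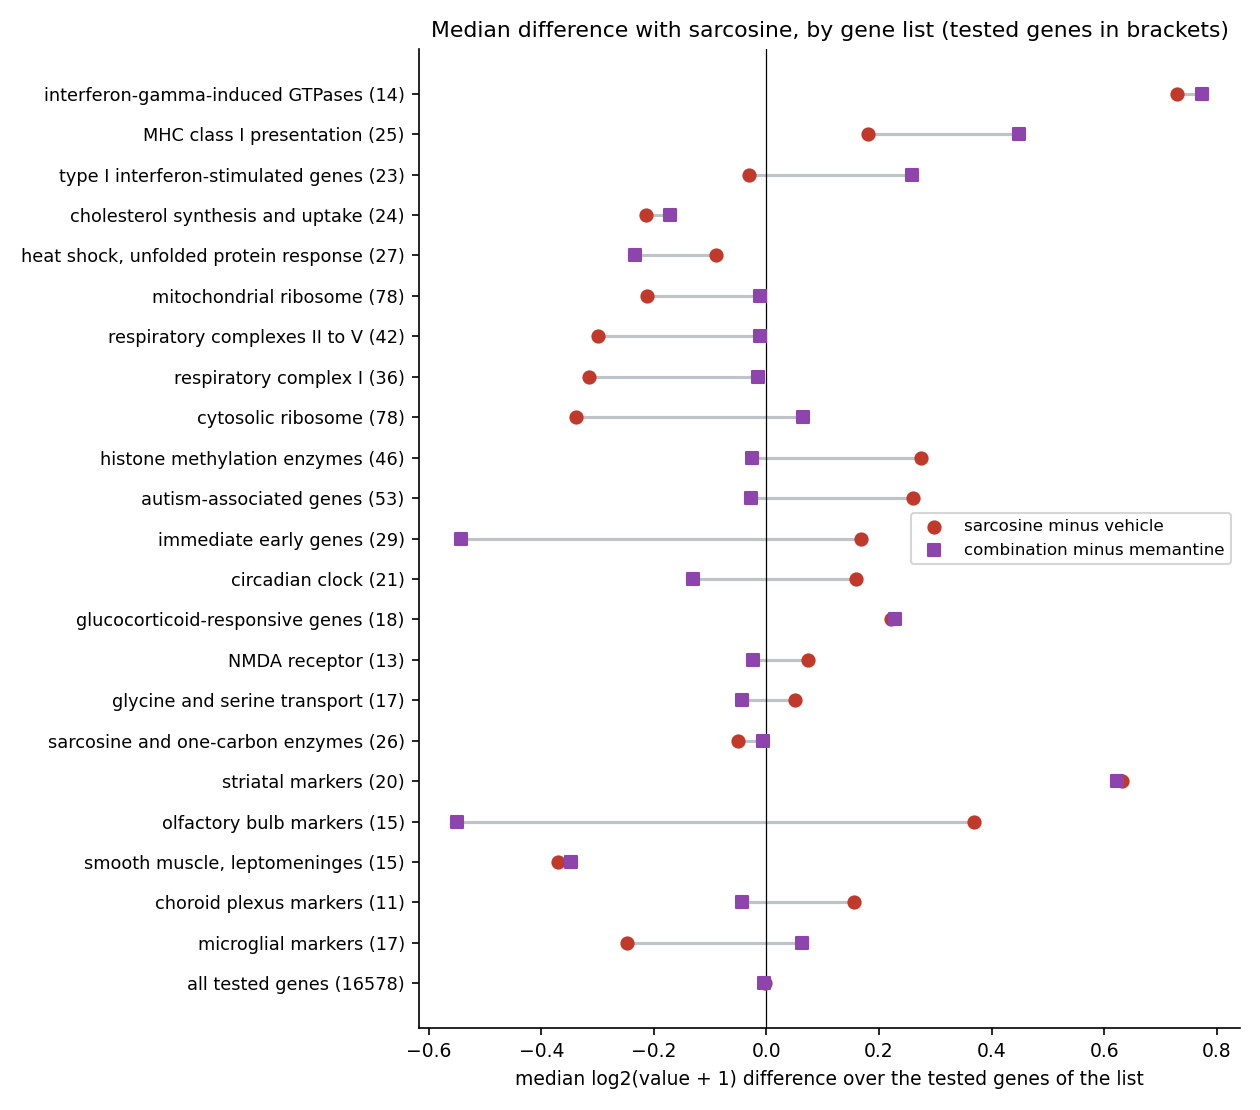
Median log2(value + 1) difference of the tested genes of 22 lists and of all tested genes, in sarcosine minus vehicle (circles) and in combination minus memantine (squares). GTPase, class I, cholesterol, glucocorticoid-responsive, striatal and smooth muscle lists have medians of the same sign at both levels, while ribosomal, histone methylation, immediate early and olfactory bulb lists do not.

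Markers of neighbouring tissue were not called. All 20 tested striatal markers had positive values, with a median of 0.63, also 0.63 in sarcosine minus vehicle and 0.62 in combination minus memantine, and 0 were called by limma. Their summed counts had a lowest, median and highest value of 6291, 13128 and 47321 in sarcosine libraries, against 5886, 8755 and 13905 in vehicle libraries. They had 6264, 12408 and 23954 in combination libraries, against 6296, 6670 and 17449 in memantine libraries. Pde10a, a phosphodiesterase of striatal neurons, was at 0.79 (adjusted p = 0.144). Olfactory bulb markers had a median of 0.37 in sarcosine minus vehicle and -0.55 in combination minus memantine, and choroid plexus markers 0.15 and -0.043, with 0 of 15 and 0 of 11 called. With marker scores as covariates the striatal median was 0.0018, the GTPase median 0.81, the class I median 0.32 and the cholesterol median -0.17. The covariates included the mean of these same striatal genes, so a striatal median near 0 follows from the fit. In that fit Gbp4 (1.63, adjusted p = 0.00106), Tgtp2, H2-Q4, H2-Q6, H2-Q7, Tap1, Nlrc5 and Acer2 were called higher and Msmo1 lower (-0.36, adjusted p = 0.0456).

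The sarcosine and memantine groups were also compared directly, and 12 genes were called (0.0724%), 10 higher (0.0603%) and 2 lower (0.0121%). The count was 4 without sarcosine replicate 1 or 5 or memantine replicate 6, 5 without memantine replicate 1, and 7 without sarcosine replicate 2 or 4 or memantine replicate 5. It was 0 without the 8 libraries (limma, 654 at an unadjusted p under 0.05), 109 with DESeq2 and 375 with library weights. The higher ones include Gbp4 (2.20, adjusted p = 0.000128), H2-Q6 (2.07, adjusted p = 0.000128), H2-Q7, Tgtp2, H2-Q4, Tap1 and Iigp1, and the lower ones are Hspa1a (-0.93, adjusted p = 0.0156) and H2aj (-0.43, adjusted p = 0.0332). Gbp4 had a memantine main effect of -0.70 (adjusted p = 0.503) and Hspa1a of 0.41 (adjusted p = 0.564). For Acer2, whose memantine main effect was 0.52 (adjusted p = 0.505), sarcosine minus memantine was 0.60 and did not pass (adjusted p = 0.281).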

How the data were processed

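Frontal cortex RNA of 24 mice was sequenced, with 6 libraries in each of 4 treatment groups, assigned from the sample titles. Per the submitters' processing notes the authors used FastQC, STAR, featureCounts 1.6.0, DESeq2 1.42.1 and the build mm39. The deposited values are counts that the authors divided by DESeq2 size factors, a signal that is not whole. In each library they were whole multiples of the value of 1 read (tolerance 0.01), so reads were recovered. The kit named in the labels is not stated to keep strand, so overlapping antisense genes cannot be told apart.

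The filter on low values asked for 10 or more in 6 or more libraries, which kept 16578 of 57180 genes. These were tested with limma 3.58.1 in R 4.3.3 on log2(value + 1), with Benjamini-Hochberg adjustment, a threshold of 0.05 and two-sided tests. Fold changes on this scale understate those of low genes. The pipeline was tested on simulated data. Alternatives were edgeR 4.0.16 and DESeq2 1.42.0 on recovered reads, other scalings, filters and pseudocounts, a loess correction for length and GC content (longest GENCODE transcript, available for 98.2% of tested genes), marker scores as covariates, and each library left out. The main fit has no replicate block. Named genes were, among called genes with a mean of at least 50 and the same sign at both levels, the 12 highest, the 12 lowest and the 6 with the smallest p, plus the 4 members of lowest p in each described list, 8 genes of the drug's chemistry and the 4 with the smallest interaction p. The comparison and gene lists were chosen with earlier results of these data known. Some members of the lists count in their totals and are not reported here.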

Additional observations from a re-analysis of the deposited data

Results flagged for a closer look

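Over 43 named called genes, the length slope and the mitochondrial share, 180 groups of 6 libraries were examined for a library far from the other 5, and 18 were found; chance gives about 1 in 20. Higher than the others were Acer2 in memantine replicate 3 (135 normalised counts, others 104 to 114), Gbp5 in memantine replicate 4 (90.1, others 54.3 to 67.3) and Tgtp2 in vehicle replicate 5 (25.3, others 12.3 to 16.8). So were Galnt15 in sarcosine replicate 6 (279.9, others 79.4 to 125) and in memantine replicate 3 (104, others 56.9 to 61.8), and Tbc1d8 in sarcosine replicate 1 (717, others 376 to 500.1). In combination replicate 1, H2-Q4 had 359.7 (others 189 to 227) and Tap1 232 (others 96.6 to 147). Zkscan16 had 528 in vehicle replicate 2 (others 207 to 327) and Hspa1a 246 in memantine replicate 6 (others 148 to 169). In vehicle replicate 1, Cisd3 had 519 (others 363 to 406) and Mrps12 862 (others 652 to 714). Nlrc5 had 63.2 in memantine replicate 3 (others 12.3 to 28.1) and Ifi47 39.6 in memantine replicate 4 (others 14.99 to 22.4).

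Lower than the others were Prdm11 in combination replicate 1 (81.3, others 111 to 127), Msmo1 in vehicle replicate 5 (1259, others 1529 to 1630), Mrps12 in combination replicate 3 (460.4, others 549 to 598) and Nlrc5 in sarcosine replicate 3 (45.7, others 57.7 to 64.2).

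The difference with sarcosine differed between memantine levels for 7 of the 134 named genes (interaction, limma, adjusted p under 0.05). Of all tested genes 1.82% were called for it. The interaction was 0.45 for H2aj, 0.49 for Rpl41, -0.42 for Slc38a1, -0.81 for Fam120c, -0.48 for Bptf, -0.58 for Trip11 and -1.08 for Usp9x. Fam120c, Bptf, Trip11 and Usp9x were named for their small interaction p, so their calls are no separate support. After the length correction 0 genes were called for the interaction.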

How the results depend on the processing

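The 123 genes of the sarcosine main effect became 17 without a filter on low values, 540 with DESeq2, 381 in the model of the 4 group means, 29 with the length correction, 11 with marker scores as covariates, 12 with both, and 1071 with library weights. Without the 3 libraries rich in choroid plexus RNA it was 339, without the 5 rich in olfactory bulb RNA 8, and without all 8 it was 3; these exclusions and the joint correction were chosen after seeing the data. It was 116 with TMM, 87 with upper-quartile scaling, 126 with edgeR, and 41 to 316 with 1 library left out. No named called gene reversed its direction under any setting run.

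The 0 genes of the memantine main effect became 12 with DESeq2, 30 with marker scores, 60 with marker scores and length correction, 7 with library weights, 1 without the choroid-rich and 1 without the olfactory-rich libraries, and 0 to 1 with 1 library left out. The 301 genes of the interaction became 0 without a filter, with the length correction, without the choroid-rich libraries or without all 8, and 8 with both corrections. They became 471 with a filter at 50, 475 with upper-quartile scaling, 931 with DESeq2, 686 with marker scores, 1516 with library weights, and 0 to 983 with 1 library left out.

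For sarcosine against vehicle, 1548 became 989 without a filter, 184 with the length correction, 138 with both corrections, 3149 with library weights, 434 without the 8 libraries, and 1078 to 1936 with 1 library left out. For combination against memantine, 9 became 4 without a filter, 5 with a filter at 50, 61 with DESeq2, 15 with the length correction, 30 with library weights, 0 without the 8 libraries, and 3 to 51 with 1 library left out. For sarcosine against memantine, 12 became 7 without a filter, 22 with marker scores, 32 with both corrections, 7 without the choroid-rich and 6 without the olfactory-rich libraries. The length slope ranged from 0.14 to 0.19 and the mitochondrial difference from -0.58 to -0.41 with 1 library left out. Where a count moved, the cause was not tested.

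Groups share replicate numbers, but the 36 same-numbered pairs did not all deviate together (r from -0.75 to 0.73, 18 over 0.1, and in 8 the same number gave the best match). Replicate 5 was positive in each pair of groups (r from 0.33 to 0.72). The check does not settle whether the numbers pair the samples. With the replicate block 73 genes were called for the main effect, 131 for the interaction and 2 for memantine.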

Other observations

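Some genes called for the sarcosine main effect belong to no group described so far, and are named here after their values were seen. Lamtor2, another Ragulator subunit beside Lamtor5, averaged 561 ± 45.5 normalised counts in sarcosine libraries and 732 ± 54.2 in vehicle libraries. It averaged 594 ± 45.8 in combination libraries and 632 ± 31.8 in memantine libraries (-0.24, limma adjusted p = 0.0371). Xrn2, the nuclear counterpart of the exonuclease Xrn1, averaged 809 ± 23.9 in sarcosine libraries and 692 ± 63.4 in vehicle libraries. It averaged 783 ± 39.5 in combination libraries and 705 ± 41.5 in memantine libraries (0.19, adjusted p = 0.0304). Hif1a, the oxygen-regulated transcription factor, averaged 1307 ± 91.7 in sarcosine libraries and 1056 ± 45.9 in vehicle libraries. It averaged 1228 ± 46.2 in combination libraries and 1126 ± 81.7 in memantine libraries (0.22, adjusted p = 0.0180).

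Chpf2 and Chst15, enzymes of chondroitin sulfate synthesis, rose by 0.42 and by 0.27 on the log2 scale (adjusted p = 0.0180 each). Plek, the pleckstrin gene of myeloid cells, was at 0.30 (adjusted p = 0.0180), with 0.18 in sarcosine minus vehicle and 0.42 in combination minus memantine. The HSP90 co-chaperone gene Ahsa1 was at -0.19 (adjusted p = 0.0336), the dynein light chain gene Dynll1 at -0.31 (adjusted p = 0.0338) and the neuronal RNA-binding protein gene Elavl3 at -0.22 (adjusted p = 0.0463). After the length correction Chpf2 and Elavl3 passed (adjusted p = 0.0464 each), and Lamtor2, Xrn2, Hif1a, Chst15, Plek, Ahsa1 and Dynll1 did not (adjusted p from 0.0518 for Chst15 to 0.164 for Dynll1).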
